A study of Mus musculus with 6 samples.

Results

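The matrix metalloproteinases (MMPs), the ADAMTS proteases, their protease-dead ADAMTS-like relatives and the tissue inhibitors of metalloproteinases (TIMPs) were read in RNA-seq of cultured mouse neural stem cells (NSCs). Members were all genes whose mouse symbol was Mmp, Adamts, Adamtsl or Timp followed by the number of the gene, which gave 46 of the 32493 genes counted. They were 18 *Mmp*, 19 *Adamts*, 5 *Adamtsl* and 4 *Timp* genes. A further 5 symbols of this form in the GENCODE M21 annotation, *Mmp1b*, *Mmp7*, *Mmp8*, *Mmp20* and *Mmp27*, had no row and were not analysed here. The cells came from the lateral ventricles of embryos at E14.5 on a C57BL/6J background and had grown for 3 generations with B27, EGF and bFGF. In cko embryos both miR-151 alleles were floxed and Emx1-IRES-Cre was present, which drives Cre in the dorsal telencephalon. The ctrl embryos, named wt in the labels, carried the same floxed alleles and no Cre, so that every library came from floxed mice. The comparison asks how these genes differ between NSCs of cko and ctrl embryos. Cre and the loss of miR-151 came together in the cko libraries, so that their effects cannot be told apart here.

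MMPs and ADAMTS proteases are secreted or membrane-bound zinc enzymes that are made as inactive proenzymes and cut collagens, proteoglycans and other proteins outside the cell. TIMPs bind their active sites, and *Timp3* also restrains ADAMTS and ADAM enzymes. In the embryonic brain these enzymes act on the basement membranes of the pial surface and vessels and on the lecticans, the hyaluronan-binding proteoglycans that fill the space between neural cells.

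The comparison was made between 3 cko and 2 ctrl libraries of 17883796 to 23335736 counts each, because ctrl replicate 2 held, in each of the 32493 genes, the rounded-up mean of the other ctrl columns. The genotypes were taken from littermates, but which library came from which embryo or litter is not given in the sources used here, so p-values measure the spread between these libraries, which may be technical. All 12 NSC markers listed (*Sox2*, *Nes* and *Fabp7* among them) could be tested, and 4 were called higher and 2 lower. Their summed levels were 8864 and 7791 CPM in ctrl and 9982, 9377 and 9244 CPM in cko libraries, without overlap. CPM are counts scaled to a common library size after normalization. Of 8 neuronal markers, 2 were called higher and 1 lower. The targeted miRNA has no row, so the labels could not be checked against it. *Xist* was at 2557 and 2889 CPM in ctrl and 787 to 894 CPM in cko libraries, and the 4 Y-linked genes listed were all higher in cko, so that the sex of the embryos and the genotype cannot be told apart. In bulk RNA, fewer cells of a type and less RNA per cell cannot be told apart.

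Of the 46 members, 36 had enough counts to be tested by the quasi-likelihood test of edgeR. A gene was called at a Benjamini-Hochberg adjusted p under 0.05 over all 16710 genes tested. In cko NSCs 5 members were called higher, *Mmp17*, *Adamts5*, *Adamts7*, *Adamts8* and *Adamtsl3*. That is 13.9% of those tested, against 7.86% of all tested genes. The 7 called lower, *Mmp2*, *Mmp11*, *Mmp14*, *Mmp28*, *Adamts14*, *Timp3* and *Timp4*, made up 19.4%, against 8.57% of all tested genes. The libraries of the genotypes did not overlap in 8 members that were higher in cko (22.2%, against 25.4% of all tested genes) and in 11 that were lower (30.6%, against 24.3%). All 12 called members were among these 19. The median log2 fold change was -0.11 over the tested members and -0.003 over all tested genes. With a cko library left out, 3 higher and 5 lower members were called without replicate 1, and 2 and 3 without replicate 2 and likewise without replicate 3. The counts over all genes fell with them, from 1314 higher and 1432 lower to 853 and 907, 317 and 416, and 336 and 457. A fit without ctrl replicate 1 or 3 keeps a single ctrl library, which is assumed to vary like the cko libraries, so that its p-values hold no spread between ctrl libraries. In such fits 8 members were called higher and 6 lower without ctrl replicate 3, and 7 and 9 without ctrl replicate 1, against 1812 and 1760 and 1681 and 2062 of all genes. Differences against a single ctrl library are therefore given as fold changes without a p.

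**Figure D1:**
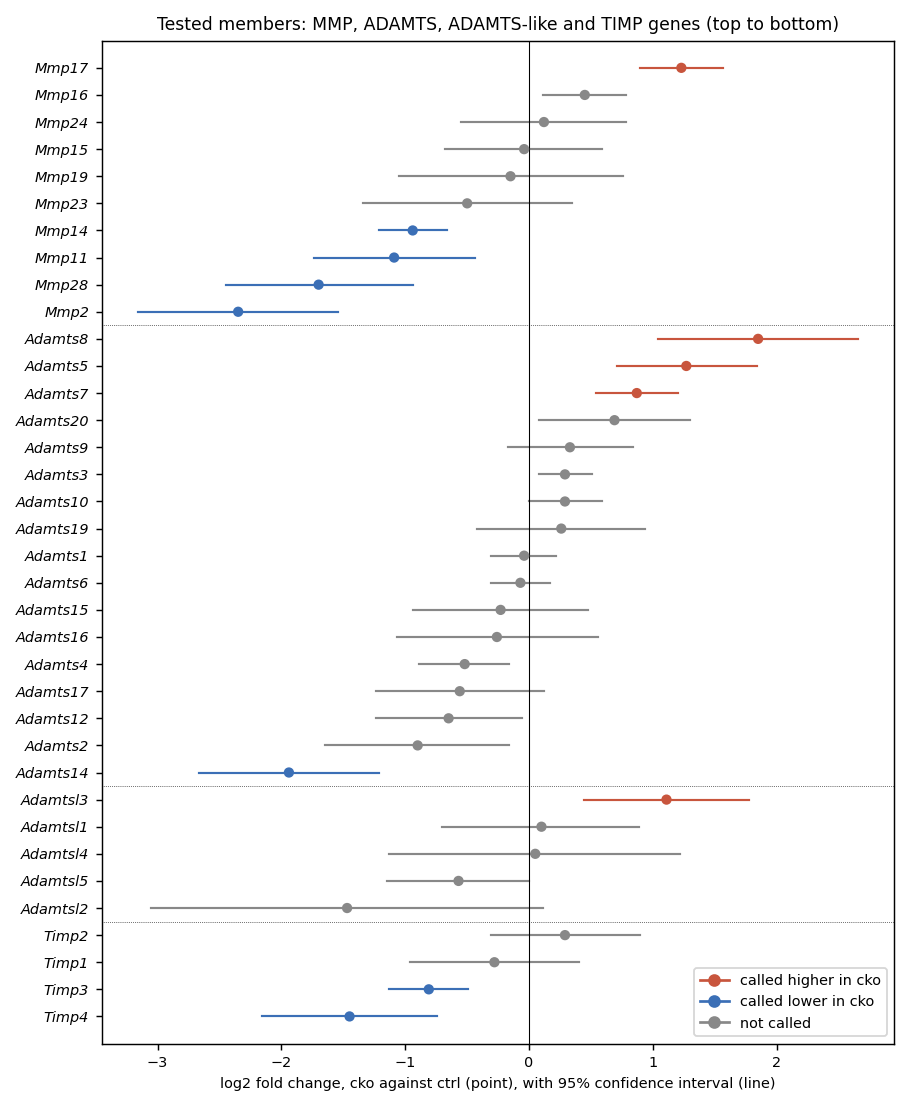
Log2 fold change of the 36 tested members, cko against ctrl, with the 95% confidence interval of edgeR's fit, grouped from top to bottom into MMP, ADAMTS, ADAMTS-like and TIMP genes. The 5 members called higher (red) and the 7 called lower (blue) have intervals clear of 0, and those of most of the 24 members that were not called (grey) cross it.

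Among the gelatinases, *Mmp2* fell and *Mmp9* was almost unread. *Mmp2* (ENSMUSG00000031740, GRCm38 chromosome 8, 92827291 to 92853420) encodes gelatinase A, which cuts denatured collagen and the type IV collagen of basement membranes. In ctrl libraries its levels were 3.80 and 7.63 CPM, against 1.18, 1.2 and 0.965 CPM in cko libraries. The cko libraries were close to each other and below both ctrl libraries, which were themselves 2.01-fold apart. The level was 5.09-fold lower in cko, at a log2 fold change of -2.35 (standard error, SE, of 0.35, edgeR adjusted p = 0.00611), the largest change among the tested members. The call was made in each fit that left out a cko library, at edgeR adjusted p of 0.0272 to 0.0433. Over all leave-one-out fits the log2 fold changes were -2.78 to -1.76. *Mmp9*, which encodes gelatinase B, had 1 and 4 counts in ctrl and 4, 9 and 12 in cko libraries and was not tested.

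The membrane-type MMPs sit at the cell surface, and their called members moved in opposite directions. *Mmp14* (ENSMUSG00000000957, chromosome 14, 54431612 to 54445364) encodes a transmembrane collagenase that activates the MMP2 proenzyme at the cell surface with TIMP2 as the bridge. It was at 40.8 and 51.6 CPM in ctrl and at 25.1, 23.7 and 23.6 CPM in cko libraries. All cko libraries lay below both ctrl libraries, by more than either group's own spread. The log2 fold change was -0.94 (SE 0.12, edgeR adjusted p = 0.00357), and the call was made with each cko library left out. *Mmp17* (ENSMUSG00000029436, chromosome 5, 129584169 to 129611099) encodes an enzyme held at the membrane by a GPI anchor. Its levels were 22.2 and 21.8 CPM in ctrl and 42.9, 58.9 and 53.4 CPM in cko libraries. The ctrl libraries were nearly equal, and the lowest cko library was well above them. *Mmp17* rose by a log2 fold change of 1.23 (SE 0.14, edgeR adjusted p = 0.00278), which was also called with each cko library left out. Within a library, *Mmp17* had 0.544 and 0.421 counts for each *Mmp14* count in ctrl and 1.71, 2.49 and 2.26 in cko. The order of the pair in counts was thus reversed between the genotypes. Both genes separated the genotypes by themselves, so the ratio is not a separate result.

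*Mmp15*, which encodes another transmembrane member, had the highest level of all members per length. It was at 60.4 and 126 CPM per kb of exon in ctrl and at 78.4, 99.9 and 93.3 CPM per kb in cko libraries. The ctrl libraries bracketed all 3 cko libraries. The log2 fold change of -0.04 had a 95% interval of -0.68 to 0.59, and it was 0.59 against ctrl replicate 1 alone and -0.49 against ctrl replicate 3 alone. The sign of its difference therefore rests on the ctrl library taken. *Mmp15* supplied 75.9% and 86.2% of the summed MMP level per kb in ctrl and 81.7% to 83.3% in cko libraries. Without it, the sum over the other MMPs was 19.1 and 20.3 CPM per kb in ctrl and 17.6, 20 and 19.7 in cko, which overlapped. *Mmp16*, a transmembrane enzyme expressed in neural tissue, was at 32.5 and 24.1 CPM in ctrl and 36.7 to 42.1 CPM in cko libraries without overlap, and was not called (log2 fold change 0.45, edgeR adjusted p = 0.0736). It was called by DESeq2 (adjusted p = 0.0442), and its log2 fold change was 0.25 against ctrl replicate 1 alone and 0.67 against ctrl replicate 3 alone. *Mmp24* had a log2 fold change of 0.12 with overlapping groups, and *Mmp25* had at most 2 counts in any library.

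Of the other MMPs, *Mmp11* and *Mmp28* were called lower at low levels. *Mmp28* (ENSMUSG00000020682, chromosome 11, 83440768 to 83463071) encodes epilysin, a secreted enzyme that furin-type convertases can activate. Its levels were 3.14 and 2.19 CPM in ctrl and 0.783, 0.986 and 0.689 CPM in cko libraries. Both ctrl libraries were above the highest cko library. *Mmp28* fell by 1.70 on the log2 scale (SE 0.32, edgeR adjusted p = 0.0147), with an adjusted p of 0.0529 without cko replicate 2 and 0.0735 without cko replicate 3. Its exons share 466 bases, 12% of their length, with *1700020L24Rik* on the opposite strand, which had 5 to 13 counts. *Mmp11* (ENSMUSG00000000901, chromosome 10, 75923222 to 75936496), a stromelysin, was at 2.71 and 2.61 CPM in ctrl and 1.40, 1.03 and 1.33 CPM in cko libraries. The genotypes were apart in these values as well. The log2 fold change was -1.09 (SE 0.28, edgeR adjusted p = 0.0367), and this call was lost in all 5 leave-one-out fits. Without cko replicate 1, 2 and 3 the edgeR adjusted p was 0.0672, 0.138 and 0.116. *Mmp11* shares 155 exon bases (5.58%) with *Chchd10* on the opposite strand, itself called lower with a log2 fold change of -2.15 (edgeR adjusted p = 0.0192). Whether reads were counted by strand is not given in the sources used here, so reads in the shared bases cannot be assigned. *Mmp19* and *Mmp23* were not called, at 0.686 to 2.18 CPM. *Mmp21* had at most 3 counts.

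**Figure D2:**
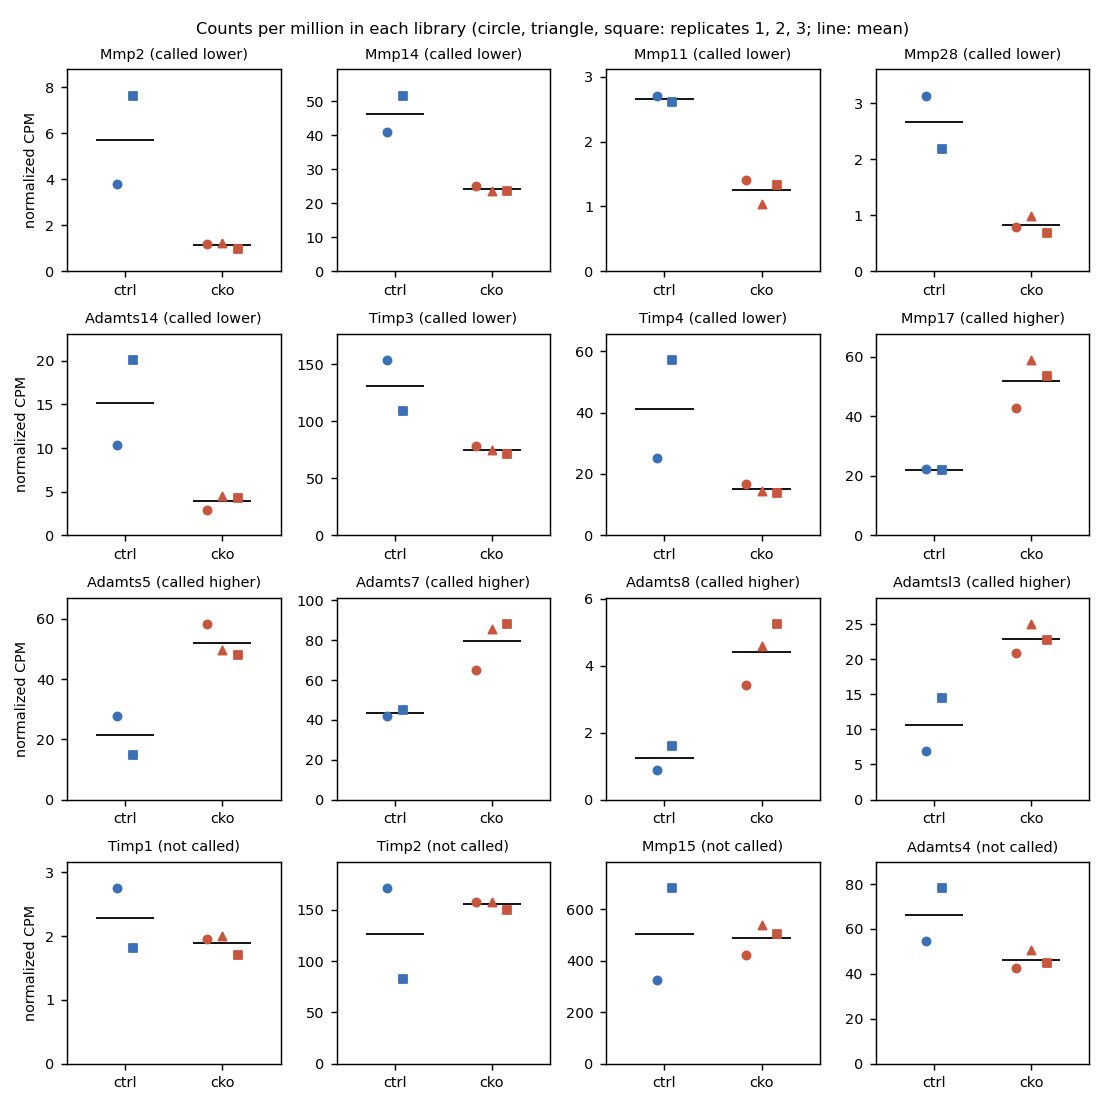
Normalized CPM in each library for the 12 called members and for *Timp1*, *Timp2*, *Mmp15* and *Adamts4*, which were not called, with a panel for each gene and linear axes from 0. Points are libraries (2 ctrl in blue, 3 cko in red) and lines are group means. In the 12 called panels the genotypes do not overlap, while the ctrl libraries of *Timp2* and *Mmp15* lie on either side of the cko libraries.

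The collagenases, the remaining stromelysins and the macrophage elastase gene *Mmp12* form a run on chromosome 9 that was silent or nearly so. Of the members with a row, *Mmp13*, *Mmp12*, *Mmp3*, *Mmp1a* and *Mmp10* follow each other on the plus strand in GENCODE M21. They lie between 7272514 and 7510240, with gaps of 8.16 to 76.3 kb. *Mmp1b*, which had no row, partly overlaps *Mmp12* on the opposite strand. *Mmp1a* and *Mmp10* had 0 counts in all 5 libraries, where 3 counts, the most that a count of 0 allows, correspond to 0.129 to 0.168 CPM. *Mmp13* had 2 counts in each ctrl library and 0 in the cko libraries, and *Mmp12* had 1 count in all. *Mmp3* had 8 counts in ctrl replicate 3, 3 in cko replicate 3 and 0 elsewhere. No difference between genotypes was detectable in them at this depth. These 5 genes were the members whose RefSeq promoter, from 250 bases before to 50 bases after the start, holds the letters TGANTCA, to which AP-1 factors are known to bind. The letters are shown because these 5 genes share them. They are given 5′ to 3′ on the plus strand of chromosome 9 in GRCm38.p6, in capitals and with 9 bases on each side.
Mmp13: ccaaagtggTGACTCAtcactatca
Mmp12: catcaacagTGAGTCAgatagagga
Mmp3: aagcaattaTGAGTCAgttttcggg
Mmp1a: tgtcaaccaTGAGTCAcatagcctc
Mmp10: gcacccatgTGAGTCAtgcttagtg
The windows lie at 7272470 to 7272494 for *Mmp13*, 7347321 to 7347345 for *Mmp12*, 7445767 to 7445791 for *Mmp3*, 7464059 to 7464083 for *Mmp1a* and 7502270 to 7502294 for *Mmp10*. The letters begin 35, 44, 46, 73 and 63 bases before the RefSeq start in that order. Of 31 members with a promoter in the table, these 5 held the letters on either strand and none of the 22 tested members did, against 8.97% of 27025 genes. The match is a description of the letters and says nothing about binding in these cells. Among the 12 AP-1 and ETS factor genes tested, *Fosl2* (log2 fold change -1.77, edgeR adjusted p = 0.00106), *Junb* (-0.82) and *Etv4* (-0.95) were called lower, *Ets1* (2.0, adjusted p = 0.000389) was called higher, and *Jun* and *Fos* were not called.

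The ADAMTS enzymes called hyalectanases cut aggrecan, brevican, neurocan and versican, and all 7 of them could be tested. Among them *Adamts5* and *Adamts8* rose and none was called lower. *Adamts5* (ENSMUSG00000022894, chromosome 16, 85856173 to 85901828), which encodes the main aggrecanase of mouse cartilage, was at 27.9 and 14.9 CPM in ctrl and at 58.3, 49.7 and 48.0 CPM in cko libraries. The lowest cko library was above the higher ctrl library, and the ctrl libraries differed 1.88-fold. The log2 fold change was 1.27 (SE 0.24, edgeR adjusted p = 0.0145), with adjusted p of 0.0546 to 0.0603 when cko replicate 1, 2 or 3 was left out. *Adamts8* (ENSMUSG00000031994, chromosome 9, 30942562 to 30963838), a low-level member, was at 0.874 and 1.6 CPM in ctrl and at 3.41, 4.59 and 5.24 CPM in cko libraries. Every cko library was above both ctrl libraries. Its log2 fold change of 1.85 (SE 0.35, edgeR adjusted p = 0.0138) was the largest rise among members. The call was lost without cko replicate 2 (adjusted p = 0.0685) and without cko replicate 3 (0.0711). An antisense gene on the opposite strand, *Gm29724*, shares 10.6% of its exon bases and had at most 3 counts.

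Each of these genes lies beside another hyalectanase gene with no coding gene between them. *Adamts1* is 53.1 kb from *Adamts5*, and *Adamts15* is 20.1 kb from *Adamts8*. *Adamts1* was at 61.3 and 49.6 CPM in ctrl and 57.9, 50.8 and 52.9 CPM in cko libraries, with a log2 fold change of -0.04 (95% interval -0.31 to 0.22). The ratio of *Adamts5* to *Adamts1* counts was 0.455 and 0.3 in ctrl and 1.01, 0.980 and 0.907 in cko libraries. *Adamts15* was at 2.14 and 3.36 CPM in ctrl and 2.06 to 2.85 CPM in cko, with a log2 fold change of -0.23 (interval -0.94 to 0.48), and the ratio of *Adamts8* to *Adamts15* counts was 0.408 and 0.476 against 1.65, 2.23 and 1.84. In both neighbouring pairs the ratio within a library separated the genotypes, as *Adamts5* and *Adamts8* did by themselves. The interval of *Adamts1* does not reach the change of *Adamts5*, nor does that of *Adamts15* reach the change of *Adamts8*, and the difference between neighbours was not tested.

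*Adamts4*, an aggrecanase known from the oligodendrocyte lineage, was at 54.5 and 78.1 CPM in ctrl and 42.5, 50.7 and 44.8 CPM in cko libraries. The genotypes did not overlap, and the gene was not called in edgeR (log2 fold change -0.52, adjusted p = 0.0588). DESeq2 called it (adjusted p = 0.0227), as did edgeR without a filter and with a block by replicate number. The fits with all 6 columns also called it, but the ctrl replicate 2 column adds no library to them. Against ctrl replicate 1 alone the log2 fold change of *Adamts4* was -0.24 and against ctrl replicate 3 alone -0.77. Of 13 oligodendrocyte lineage genes listed, 8 were called lower and 2 higher, with a median log2 fold change of -1.73 and summed levels of 4006 and 4639 CPM in ctrl and 3802 to 3937 CPM in cko libraries. Their part in the *Adamts4* values was not tested. *Adamts9*, which is also known for its role at the base of cilia, had a log2 fold change of 0.33 that was 0.74 against ctrl replicate 1 alone and 0.01 against ctrl replicate 3 alone. *Adamts20*, a versican-cutting enzyme of the embryonic skin, was at 2.66 and 2.77 CPM in ctrl and 3.53 to 5.51 CPM in cko libraries and was not called (log2 fold change 0.69, edgeR adjusted p = 0.115). Summed per kb of exon, the 7 hyalectanases stood at 28.6 and 32.0 CPM per kb in ctrl and 29.8, 30.9 and 30.1 in cko libraries, so that the sums of the genotypes overlapped. In the list of lecticans and other brain matrix proteins, 2 of 14 tested genes were called higher, *Tnc* (log2 fold change 0.77) and *Vcan* (0.61), and 2 lower, *Tnr* (-1.5) and *Dag1* (-0.34), with a median of -0.03. The lecticans *Bcan* and *Ncan* were not called.

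The procollagen N-proteinases remove the amino-terminal propeptide of fibrillar procollagens. *Adamts14* (ENSMUSG00000059901, chromosome 10, 61197112 to 61273438) was at 10.3 and 20.1 CPM in ctrl and at 2.91, 4.54 and 4.32 CPM in cko libraries. All cko libraries were below the lower ctrl library, and the ctrl libraries differed 1.95-fold. It fell 3.84-fold, with a log2 fold change of -1.94 (SE 0.31, edgeR adjusted p = 0.00825) and a call with each cko library left out. *Adamts3*, whose enzyme also acts on the lymphatic growth factor VEGFC, was at 30.9 and 33.6 CPM in ctrl and 37.1 to 40.8 CPM in cko libraries. It was not called (log2 fold change 0.29, edgeR adjusted p = 0.0719), with 0.36 against ctrl replicate 1 alone and 0.22 against ctrl replicate 3 alone. *Adamts2* was not called at 0.772 to 1.76 CPM (log2 fold change -0.90, edgeR adjusted p = 0.0963). The ratio of *Adamts14* to *Adamts3* counts was 0.334 and 0.599 in ctrl and 0.0784, 0.111 and 0.107 in cko libraries. It separated the genotypes, as both genes did by themselves. *Adamts14* was the only member of the 31 with a promoter whose window holds CCGGAA, letters known to be bound by ETS factors, on either strand, against 16.7% of all genes. The window, with the letters in capitals, spans 61273601 to 61273624 of chromosome 10, minus strand, in GRCm38.p6 and begins its capitals 196 bases before the start.
Adamts14: gccgtgactCCGGAAagctctggc

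The genes for collagens and basement membrane proteins, substrates of these and of the MMPs, were given beside them from a list of 19. Of 15 tested, 6 were called lower, among them *Fn1* (log2 fold change -2.02), *Col2a1* (-4.25) and *Hspg2* (-1.31), and 1 higher, *Lama1* (0.57), with a median of -1.13. Of all tested genes, 8.57% were called lower and 7.86% higher. The ctrl libraries were far apart in *Col2a1* (9.61 and 39.3 CPM, against 0.615 to 1.65 CPM in cko) and in *Fn1* (16.6 and 34.5 CPM, against 4.81 to 7.26 CPM). Fibroblasts and meninges are known sources of *Mmp2*, *Mmp14* and *Adamts14*, and 9 of 10 listed markers of them had a row. Their summed level was 14 and 21.7 CPM in ctrl and 4.59, 5.53 and 5.93 CPM in cko libraries. Of the 3 tested, only *Foxc1* was called lower (log2 fold change -1.85), and it supplied most of the sum at 10.7 and 15.3 CPM in ctrl and 3.25 to 3.86 CPM in cko. *Col1a1* had 31 and 52 counts in ctrl and 9, 20 and 29 in cko libraries (log2 fold change -1.17, edgeR adjusted p = 0.141), and *Col3a1* had 42 counts in ctrl replicate 3 and at most 1 elsewhere. *Dcn*, *Lum* and *Postn* had at most 4 counts in any library. Of 7 pericyte and smooth muscle markers 2 were tested and none called, and their sum of 195 to 391 CPM came almost wholly from *Cspg4*, which the oligodendrocyte list also holds. The part of these cells in the lower *Mmp2*, *Mmp14* and *Adamts14* was not tested. The endothelial markers summed to 4.32 and 5.02 CPM in ctrl and 5.06 to 6.76 CPM in cko libraries, with *Cdh5* at 0. The microglial and leukocyte markers summed to 3.03 to 3.90 CPM with overlap, and *Cx3cr1*, *Tmem119* and *Itgam* were at 0. None of the tested markers of these last lists was called.

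*Adamts7* and *Adamts12* encode enzymes that cut the cartilage oligomeric matrix protein, and only the first was called. *Adamts7* (ENSMUSG00000032363, chromosome 9, 90163069 to 90208071) was at 41.8 and 45.2 CPM in ctrl and at 64.9, 85.5 and 88.1 CPM in cko libraries. The ctrl libraries were close together and below all cko libraries. *Adamts7* rose by a log2 fold change of 0.87 (SE 0.14, edgeR adjusted p = 0.00819), called with each cko library left out at adjusted p of at most 0.0496. It shares 1.94% of its exon bases with *Tbc1d2b* on the opposite strand, which was not called (log2 fold change -0.38). *Adamts12* was at 13.4 and 24.1 CPM in ctrl and 9.96 to 13.6 CPM in cko libraries, with overlap, and was not called (log2 fold change -0.65, edgeR adjusted p = 0.123). Its log2 fold change was -0.17 against ctrl replicate 1 alone and -1.03 against ctrl replicate 3 alone. Among the remaining ADAMTS genes, *Adamts6*, *Adamts10*, *Adamts16*, *Adamts17* and *Adamts19* were not called, with log2 fold changes of -0.56 for *Adamts17* to 0.29 for *Adamts10*. *Adamts18* had 5 and 2 counts in ctrl and 0 in cko libraries, and *Adamts13*, whose enzyme trims von Willebrand factor in blood, had 2 counts in all.

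ADAMTS-like proteins keep the binding domains of the ADAMTS enzymes without the protease, and several attach to fibrillin microfibrils. *Adamtsl3* (ENSMUSG00000070469, chromosome 7, 82335694 to 82614450) was at 0.886 and 1.87 CPM per kb of exon in ctrl and at 2.70, 3.23 and 2.94 CPM per kb in cko libraries. The cko libraries stood together above both ctrl libraries, which were 2.12-fold apart. Its log2 fold change was 1.11 (SE 0.29, edgeR adjusted p = 0.0385), with adjusted p of 0.0901, 0.142 and 0.127 without cko replicate 1, 2 and 3. The other 4 were not called. *Adamtsl2*, a fibrillin-binding regulator of TGF-beta, had 30 and 11 counts in ctrl and 12, 3 and 6 in cko libraries (log2 fold change -1.47, 95% interval -3.05 to 0.11). *Adamtsl1*, *Adamtsl4* and *Adamtsl5* were at 0.640 to 4.67 CPM, and *Adamtsl1* and *Adamtsl4* differed more between the ctrl libraries (2.04-fold and 2.66-fold) than between the genotypes (1.07-fold and 1.03-fold). Summed per kb, ADAMTS-like levels were 2.58 and 2.88 CPM per kb in ctrl and 3.73, 4.19 and 4.21 in cko libraries without overlap. Without *Adamtsl3* they were 1.69 and 1 CPM per kb in ctrl and 1.04, 0.961 and 1.26 in cko libraries, which overlapped. Of 15 tested genes of the microfibrils and their TGF-beta binding proteins, 2 were called higher, *Ltbp4* (log2 fold change 0.63) and *Fbln1* (0.89), and 5 lower, *Ltbp1* (-0.82), *Ltbp3* (-0.80), *Fbln2* (-1.34), *Mfap2* (-1.08) and *Thsd4* (-2.10), with a median of -0.27.

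The TIMP genes divided into a pair that was called lower, *Timp3* and *Timp4*, and a pair that was not called, *Timp1* and *Timp2*. *Timp3* (ENSMUSG00000020044, chromosome 10, 86300372 to 86349506) encodes the inhibitor that binds to the matrix and covers the widest range of enzymes. It was at 154 and 109 CPM in ctrl and at 78.8, 74.8 and 71.3 CPM in cko libraries. The cko libraries were within a narrow range below both ctrl libraries. *Timp3* fell by 0.81 on the log2 scale (SE 0.14, edgeR adjusted p = 0.00970), and its adjusted p was 0.0547 without cko replicate 2 and 0.0571 without cko replicate 3. *Timp4* (ENSMUSG00000030317, chromosome 6, 115241892 to 115252205), whose inhibitor is known from brain and heart, was at 4.26 and 9.70 CPM per kb of exon in ctrl and at 2.82, 2.47 and 2.36 CPM per kb in cko libraries. The cko libraries were again below both ctrl libraries, and the ctrl libraries were 2.28-fold apart. The log2 fold change of -1.45 (SE 0.30, edgeR adjusted p = 0.0195) was not called when cko replicate 1, 2 or 3 was left out, with adjusted p of 0.0622 to 0.0899.

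*Timp2* (ENSMUSG00000017466, chromosome 11, 118301069 to 118355740) had the highest level per length of the 4, at 43.8 and 21.1 CPM per kb in ctrl and 40.5, 40.6 and 38.6 in cko libraries. As CPM these levels were 171 and 82.4 in ctrl and 158, 158 and 150.3 in cko. The cko libraries lay between the ctrl libraries and close to ctrl replicate 1. The log2 fold change was 0.29 (95% interval -0.31 to 0.90, edgeR adjusted p = 0.469), but 0.91 against ctrl replicate 3 alone and -0.13 against ctrl replicate 1 alone. Without the filter on low counts *Timp2* was called higher (log2 fold change 0.30, adjusted p = 0.024 in edgeR), although the ctrl libraries bracket its cko libraries. That fit called 1838 of all genes higher and 2237 lower, against 1314 and 1432 with the filter. *Timp1* (ENSMUSG00000001131, X chromosome, 20870166 to 20874735), an inhibitor known to be induced in reactive glia, was at 2.75 and 1.81 CPM in ctrl and 1.96, 2.01 and 1.70 CPM in cko libraries, which overlapped. It was not called (log2 fold change -0.28, 95% interval -0.96 to 0.40, edgeR adjusted p = 0.551). The ratio of *Timp2* to *Timp3* counts was 1.11 and 0.754 in ctrl and 2, 2.12 and 2.11 in cko libraries, and that of *Timp2* to *Mmp14* was 4.18 and 1.6 against 6.30, 6.69 and 6.36. Both ratios separated the genotypes, as *Timp3* and *Mmp14* did by themselves, while *Timp2* alone did not. The summed TIMP level, 70.0 and 46.3 CPM per kb in ctrl and 55.2, 54.5 and 51.6 in cko, overlapped, as did its ratio to the summed MMP level (0.880 and 0.316 against 0.455 to 0.575).

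The *Timp1*, *Timp3* and *Timp4* genes lie inside the synapsin genes *Syn1*, *Syn3* and *Syn2*, on the opposite strand. *Timp3* shares 1733 exon bases (21.3%) with *Syn3*, which was not called (log2 fold change 0.53, edgeR adjusted p = 0.0869) and had 176 to 378 counts against 1408 to 3515 for *Timp3*. *Timp4* shares 90 exon bases (1.53%) with *Syn2*, which was not called (0.26), and *Timp1* shares none with *Syn1*, which was called higher (0.42, adjusted p = 0.0286). The hosts of *Timp3* and *Timp4* thus had positive log2 fold changes that were not called. Astrocytes are a known source of *Timp3* and *Timp4*, and 4 of 7 astrocyte markers listed were called lower and none higher. Their summed level was 3037 and 2001 CPM in ctrl and 1533, 833 and 869 CPM in cko libraries. Of this, *Gfap*, which overlapped and was not called, supplied 1008 and 178 CPM in ctrl and 298, 86.7 and 122 CPM in cko libraries. Of 6 choroid plexus markers 3 were tested. *Otx2* (log2 fold change -2.13) and *Aqp1* (-2.69) were called lower, and *Clic6* (0.35) was not called. *Ttr* was not tested, with 5 and 23 counts in ctrl and 2, 7 and 3 in cko libraries. The sum was 10.4 and 11.2 CPM in ctrl against 2.34 to 3.43 CPM in cko libraries. *Otx2* supplied most of it, at 8.43 and 7.10 CPM in ctrl and 1.42 to 2.36 CPM in cko libraries. The part of either list in the TIMP values was not tested.

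**Figure D3:**
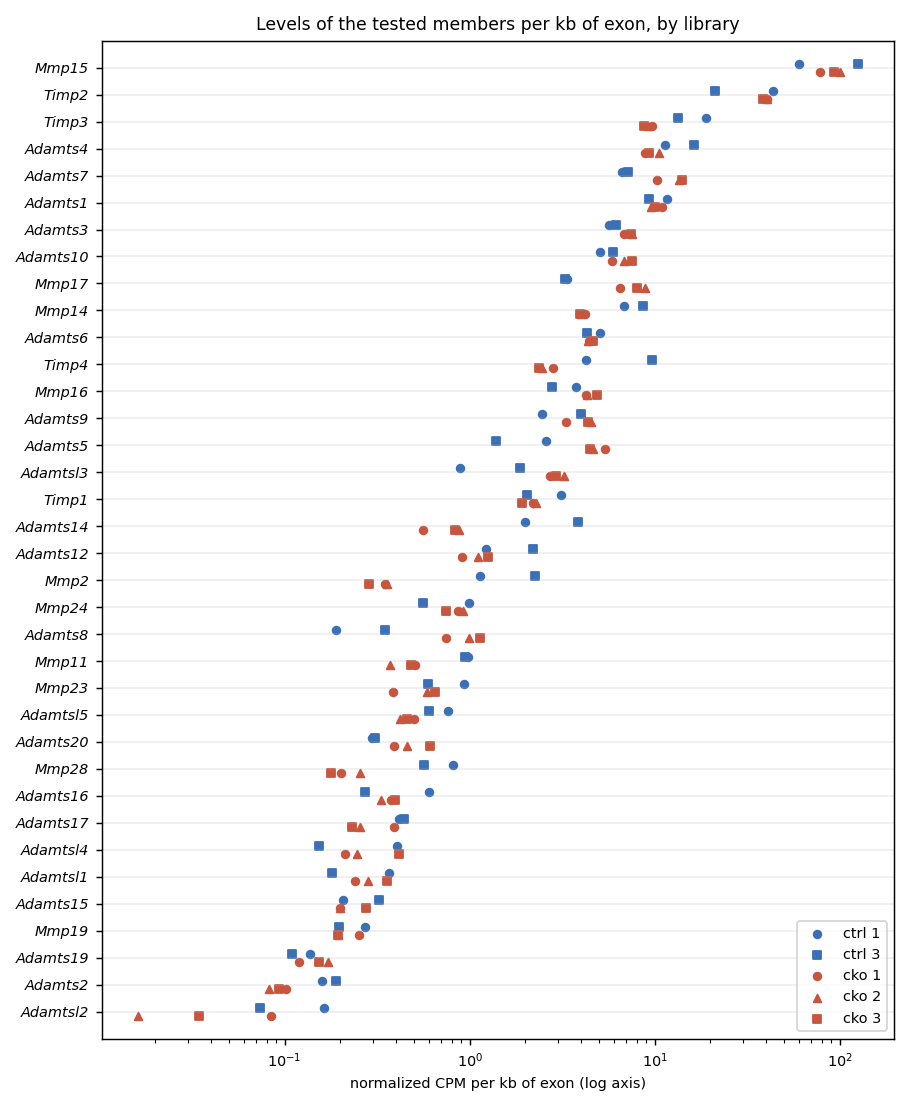
Levels of the 36 tested members in each library as normalized CPM per kb of exon, on a log axis and ordered by their mean over 5 libraries. *Mmp15* and *Timp2* lead, and their ctrl libraries (blue) lie on either side of the cko libraries (red). The genotypes stand apart in other members, among them *Timp3*, *Adamts7*, *Mmp2* and *Adamts8*, and overlap in 17 of the 36.

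The genes that activate, bind or clear these enzymes were read from a list of 20, of which 17 were tested. None was called higher and 4 were called lower. These were *Bsg* (log2 fold change -0.70, edgeR adjusted p = 0.0213), which encodes a surface inducer of MMPs, the protease inhibitor *A2m* (-1.59, adjusted p = 0.00842), the collagen chaperone *Serpinh1* (-1.92, adjusted p = 0.00632) and the uptake receptor *Lrp2* (-1.12, adjusted p = 0.0342). *Reck*, which encodes a membrane-anchored MMP inhibitor, was at 19 and 18.9 CPM in ctrl and 19.7 to 20.2 CPM in cko libraries (log2 fold change 0.08). The convertase gene *Furin*, whose enzyme activates membrane-type MMPs and ADAMTS proenzymes, was at 62.5 and 49.8 CPM in ctrl and 41.0 to 45.9 CPM in cko libraries and was not called (log2 fold change -0.39, edgeR adjusted p = 0.0555). The plasminogen gene *Plg* had at most 2 counts. Of 14 tested ADAM and astacin genes, the related sheddases and procollagen C-proteinases, *Adam9* (log2 fold change 0.47) and *Adam10* (0.28, adjusted p = 0.0495) were called higher, and *Adam15* (-0.79, adjusted p = 0.00469) lower. Over the 6 lists, 8 of 87 tested genes (9.20%, against 7.86% of all tested genes) were called higher and 21 (24.1%, against 8.57%) lower. Without cko replicate 1 these counts were 5 and 13, without cko replicate 2 they were 1 and 10, without cko replicate 3 they were 1 and 9, and without ctrl replicate 1 they were 9 and 33.

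The ctrl libraries differed from each other in part of the members. In 9 of 36 tested members (25.0%) the ctrl libraries were more than 2-fold apart, against 9.26% of all tested genes, and *Adamtsl2* was the only tested member as far apart among the cko libraries. *Mmp2*, *Mmp15*, *Timp4* and *Adamtsl3* were higher in ctrl replicate 3, and *Timp2*, *Adamts16*, *Adamtsl1*, *Adamtsl2* and *Adamtsl4* were higher in ctrl replicate 1. In 7 tested members the cko libraries lay between the ctrl libraries, so that the sign of the difference was that of the ctrl library chosen. The 12 called members kept their sign in every leave-one-out fit. Of them *Mmp2*, *Mmp14*, *Mmp17*, *Adamts7* and *Adamts14* were called in each fit that left out a cko library, at edgeR adjusted p of at most 0.0496.

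**Figure D4:**
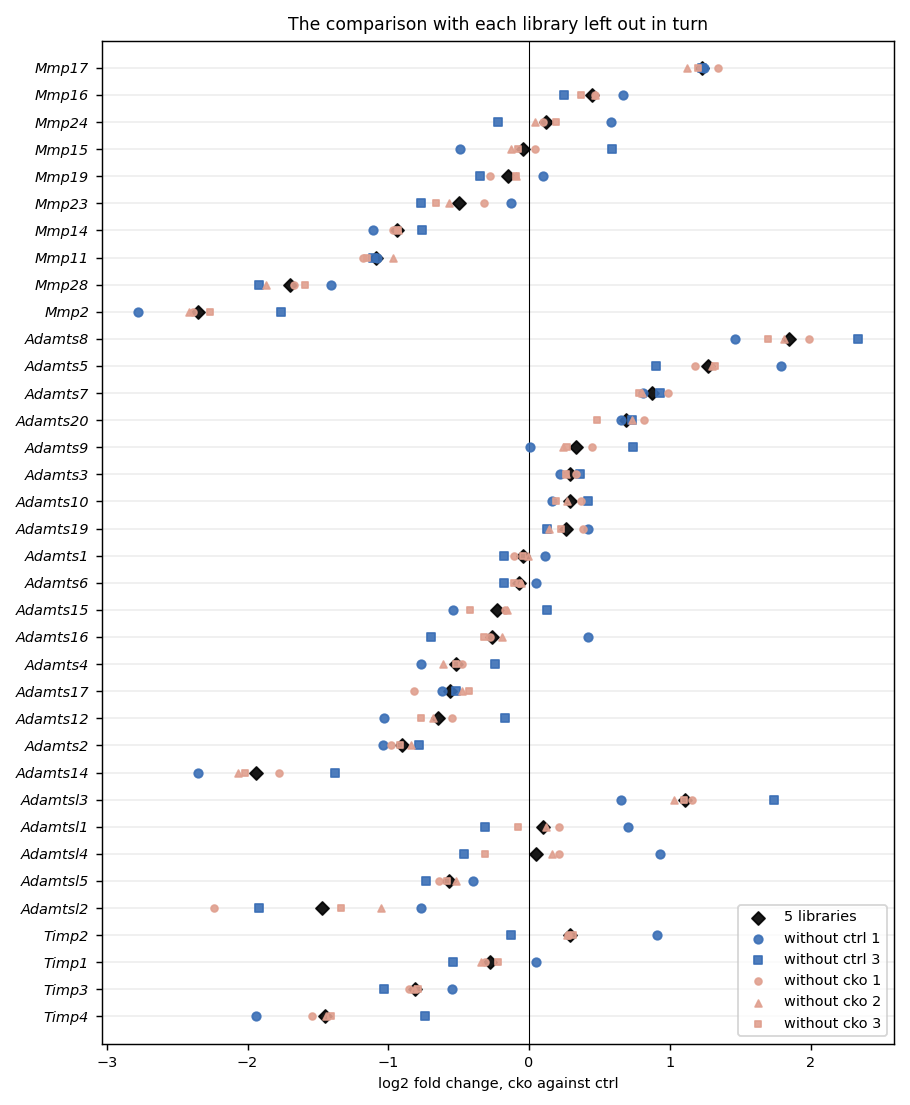
Log2 fold change, cko against ctrl, of each tested member with all 5 libraries (black diamonds) and with each library left out in turn. Fits without a ctrl library (blue) keep 1 of 2 and those without a cko library (pink) 2 of 3 libraries of the group. *Mmp15*, *Timp2* and *Adamts16* are among those whose sign depended on the ctrl library, while *Mmp17* stayed between 1.12 and 1.34.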

How the data were processed

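RNA-seq was run on NSCs of E14.5 cko and ctrl embryos. Reads were checked with FastQC 0.11.5, filtered with NGSQC 2.3.3 and aligned to mm10 by HISAT2, and the authors deposited a table of counts per gene with no normalization. The counting tool, annotation and strand setting are not given in the sources used here. The labels' processing notes name another mouse build, and the deposited table of counts carries no coordinates. Of 32493 gene IDs, 31829 were matched to names and positions in GENCODE M21 (GRCm38). Promoters came from RefSeq on GRCm38.p6 and were searched for TGANTCA and CCGGAA on both strands.

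Counts were filtered by filterByExpr, scaled by TMM (factors 0.9902 to 1.007) and tested by the quasi-likelihood test of edgeR 4.0.16 in R 4.3.3 over 16710 genes, after the steps were tested on simulated data. CPM values use these factors, and levels between genes are CPM per kb of merged M21 exon. Standard errors are the size of the log2 fold change over the root of F. Intervals are 95% and, like the floor of 3 counts, cover no error beyond these libraries. DESeq2 1.42.0, median-of-ratios scaling, other filters, the replicate block, all 6 columns, each library left out and the study's threshold (log2 fold change beyond 0.9, unadjusted p under 0.01) were alternatives. Full values are given for each called member and each *Timp* gene, those not called are given by values or range, and other genes come from 6 pathway and 10 marker lists. The members and lists were chosen with earlier results of these data known. Seed sites of the miRNA and protein sequences were not analysed here. Figures were drawn with matplotlib 3.10.9.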

Additional observations from a re-analysis of the deposited data

How the results depend on the processing

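Of the 12 called members, 11 were called at an adjusted p under 0.05 in all 8 other fits with no replicate left out, and *Mmp11* was not called with the replicate block (log2 fold change -0.96, adjusted p = 0.145 in edgeR). At the study's threshold 4 members were higher and 6 lower, since *Adamts7* (0.87) and *Timp3* (-0.81) did not reach 0.9. Members called higher numbered 8 without a filter, 8 with all 6 columns, 10 with all 6 and the replicate block and 9 by DESeq2 on all 6 columns, and members called lower numbered 11 with all 6 columns and the replicate block. Over all genes, 2865 were higher and 2794 lower with all 6 columns, 2675 and 2673 with the replicate block on them, 2593 and 2630 by DESeq2 on them, and 399 and 696 at the study's threshold, and 2237 were lower without a filter. With 1 replicate left out, where fits with a single ctrl library assume that it varies like the cko libraries, 2 to 8 members were called higher and 3 to 9 lower, against 317 to 1812 and 416 to 2062 of all genes and 1 to 11 and 9 to 33 of the pathway list genes. Pathway list genes called lower numbered 32, 33 and 33 with all 6 columns in edgeR, with the block and by DESeq2, and 34 without a filter. The column of ctrl replicate 2 adds no library to these fits. Single members that changed sign were all among those not called. They were *Adamts1* with the replicate block (0.01), *Mmp15* with all 6 columns and the block (0.03), and, with 1 replicate left out, *Adamts1* (-0.18 to 0.11), *Adamts6* (-0.18 to 0.05), *Adamts15* (-0.54 to 0.13), *Adamts16* (-0.70 to 0.42), *Adamtsl1* (-0.31 to 0.70), *Adamtsl4* (-0.46 to 0.93), *Mmp15* (-0.49 to 0.59), *Mmp19* (-0.35 to 0.10), *Mmp24* (-0.22 to 0.58), *Timp1* (-0.54 to 0.05) and *Timp2* (-0.13 to 0.91). The causes were not tested. With the replicate block 5 members were called higher and 7 lower, without *Mmp11* and with *Adamts4* (-0.58, adjusted p = 0.0182 in edgeR), and 918 and 1065 of all genes. The block pairs libraries by their number, and whether these are pairs of a litter is not given in the sources used here. The deviations of the numbered pairs correlated at r = 0.20 and 0.0568 across genes. With 2 ctrl libraries, whose deviations mirror each other, these values cannot show whether the numbers mark pairs.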
